A study of Mus musculus with 16 samples.

Results

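The transcripts of glycolysis, glucose transport and glycogen metabolism were examined in tibialis anterior, a fast-contracting muscle of the mouse lower leg. The set holds 34 genes of 24826 that were tested, chosen by name for their place in the pathway, with earlier results of these data known. All 34 matched a probe through its RefSeq accession, and all 34 were well above background on each of the 16 arrays, so none was lost to the filter on dim probes. Dams ate normally (control) or had their food cut by 50% in gestational week 3 (undernourished), and their offspring either ate ad libitum (AL) or were calorie restricted (CR), so the groups are control AL and CR and undernourished AL and CR. Each group had 8 mice, whose RNA was pooled in pairs for 4 arrays. Strain, sex, age, the size and length of the restriction and the litters are not given in the labels, and no group carries a named allele or drug. The p-values below measure the spread between pools, and pools may not be independent for a diet given to dams.

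Glycolysis splits glucose into pyruvate and yields ATP without oxygen, and fast muscle is built around it. Glucose enters through transporters and is trapped by hexokinase, or is released within the fibre from glycogen by phosphorylase, which phosphorylase kinase switches on. Pyruvate that is not oxidised becomes lactate and leaves through monocarboxylate transporters, and the fibre rebuilds glycogen with glycogen synthase and branching enzyme. Several steps have a muscle isoform and others that brain, liver or growing cells use, so that the isoforms on an array also speak of which cells its RNA came from.

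All values below are log2 signals relative to the 75th percentile of the array, given for replicates 1 to 4, and levels are compared between arrays for 1 probe, never between genes. A change is a difference of log2 group means, CR minus AL unless stated otherwise, written with its standard error from limma and 4 arrays per group. A gene was called at a Benjamini-Hochberg adjusted p under 0.05 over all genes tested. In bulk muscle, fewer cells of a type and less RNA per cell cannot be told apart.

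The label of the tissue held: all 12 markers of fast muscle were well above background on every array. Foreign transcripts were present too, mostly on AL arrays. For 28 of 30 listed brain markers that were measured, the median log2 signal on control AL replicates 1 to 4 was 0.43, 0.01, -2.07 and -2.16, with -1.47, -2.22, -2.07 and -2.77 on the undernourished AL arrays and -6.34 to -5.90 on the 8 CR arrays. Markers of skin, 16 of 18 measured, stood at 0.02, 1.14 and -0.49 on control AL replicates 1, 2 and 3, at -2.05 on undernourished AL replicate 3, at -1.97 on undernourished CR replicate 2, and at -4.15 to -2.94 on the other arrays. With restriction 25 of the 28 brain markers fell in control and 21 in undernourished offspring, while 1, Camk2a, rose in each. Of the skin markers 14 of 16 and 0 of 16 fell. The log2 of the summed brain signal was 5.34 to 7.35 in control AL, 5.002 to 5.77 in undernourished AL, 4.96 to 5.37 in control CR and 4.95 to 5.06 in undernourished CR, and that of skin was 2.04 to 6.47, 2.12 to 2.72, 2.05 to 2.30 and 1.99 to 3.14. On CR arrays the brain sum mainly follows Camk2a, which read 4.64 to 5.13 in control CR and 4.74 to 4.83 in undernourished CR. Its AL arrays were lower, at 3.54 to 4.26 (control) and 3.32 to 4.11 (undernourished). The mean brain index, a covariate below, is built from the same sum. On CR arrays 14 to 18 of the 28 brain markers were still well above background. Of 7 leukocyte markers 6 fell in control offspring and none was called in undernourished offspring, and of the 10 liver, 6 adipocyte, 4 red cell and 8 slow muscle markers at most 1 was called in either. Both AL groups were scanned on 1 day on slides 1 and 2, and both CR groups on another day on slides 3 and 4, so feeding, slide and scan day cannot be told apart, whereas maternal diet was balanced on every slide. Between 65.9% and 78.1% of probes were well above background and no spot was saturated.

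With restriction, 7 of the 34 transcripts passed the test in control offspring and 4 in undernourished offspring. In offspring of control dams 4 rose and 3 fell, while 31.9% of all genes tested were called (limma), 16.8% higher and 15.1% lower. The 4 that rose were Phka1, Phkb, Gys1 and Gbe1, all of glycogen metabolism. The 3 that fell were Pfkp, Slc16a3 and Aldoa. In offspring of undernourished dams 4 of 34 fell, Slc16a3, Aldoa, Eno3 and Ldha, and none rose, while 20.1% of all genes were called, 10.3% higher and 9.82% lower. The median change of the 34 was 0.14 in control and -0.01 in undernourished offspring, beside 0.06 and -0.00 over all genes. None of the 34 was called by the interaction test of the difference between the 2 kinds of offspring.

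**Figure D1:**
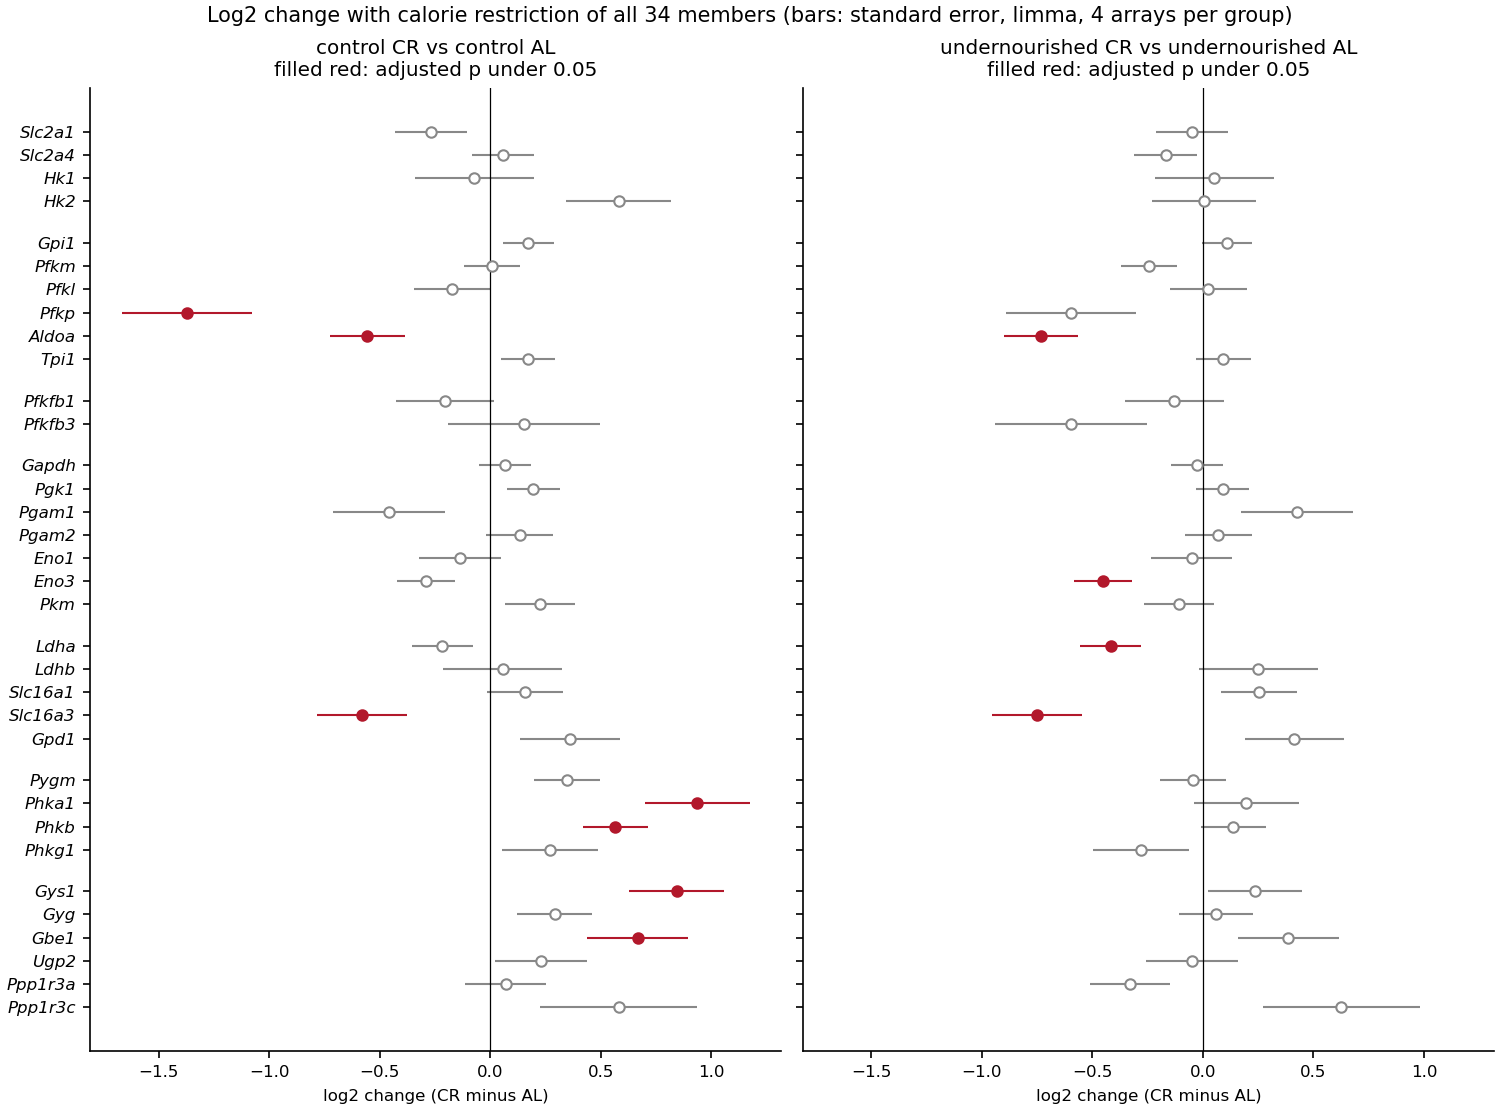
Log2 change with calorie restriction (x axis, CR minus AL) of each of the 34 genes, grouped by role, in offspring of control dams (left) and undernourished dams (right). Points are limma estimates with standard errors, 4 arrays per group, and filled red points have an adjusted p under 0.05: 7 on the left and 4 on the right.

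For called genes of glycolysis, lactate export and glycogen metabolism, chosen after their values were seen, the 250 bases upstream of the first start site listed by RefSeq (GRCm38.p6) are printed 5′ to 3′ on the gene's strand. They show whether genes that moved together share letters that 2 well-known factor families read. Capitals mark ACGTG on either strand, the core that hypoxia-inducible factors bind, and CAGCTG, an E-box that reads the same on both strands and that myogenic factors bind. A CACGTG holds ACGTG on both strands. The first 4 genes fell in undernourished offspring, and the last 2 rose in control offspring.
Slc16a3 (chr11:120948817-120949066, plus strand): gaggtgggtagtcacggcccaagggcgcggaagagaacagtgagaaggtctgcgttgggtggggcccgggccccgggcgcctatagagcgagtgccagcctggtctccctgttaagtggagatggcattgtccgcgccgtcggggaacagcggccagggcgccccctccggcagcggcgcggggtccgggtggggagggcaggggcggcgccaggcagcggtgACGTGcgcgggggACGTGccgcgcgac
Ldha (chr7:46845554-46845803, plus strand): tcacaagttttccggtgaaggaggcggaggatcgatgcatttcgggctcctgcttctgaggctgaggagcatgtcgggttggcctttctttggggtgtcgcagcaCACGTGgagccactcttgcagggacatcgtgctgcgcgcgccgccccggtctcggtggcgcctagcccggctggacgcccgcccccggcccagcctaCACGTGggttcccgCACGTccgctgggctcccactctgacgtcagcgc
Aldoa (chr7:126800448-126800697, minus strand): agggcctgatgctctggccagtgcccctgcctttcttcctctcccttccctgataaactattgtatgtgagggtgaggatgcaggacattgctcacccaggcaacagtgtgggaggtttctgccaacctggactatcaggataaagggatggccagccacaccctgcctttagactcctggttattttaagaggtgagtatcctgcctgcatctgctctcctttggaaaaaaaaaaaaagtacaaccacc
Eno3 (chr11:70656926-70657175, plus strand): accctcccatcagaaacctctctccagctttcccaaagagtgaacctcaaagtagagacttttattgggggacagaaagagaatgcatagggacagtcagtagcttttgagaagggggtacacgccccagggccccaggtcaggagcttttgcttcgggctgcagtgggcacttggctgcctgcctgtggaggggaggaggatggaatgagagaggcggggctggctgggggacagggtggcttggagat
Gys1 (chr7:45434589-45434838, plus strand): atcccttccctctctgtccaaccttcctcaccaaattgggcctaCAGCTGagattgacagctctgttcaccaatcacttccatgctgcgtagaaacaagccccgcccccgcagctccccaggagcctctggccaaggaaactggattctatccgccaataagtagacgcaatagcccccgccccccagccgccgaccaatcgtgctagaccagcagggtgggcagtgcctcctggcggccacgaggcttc
Phka1 (chrX:102644247-102644496, minus strand): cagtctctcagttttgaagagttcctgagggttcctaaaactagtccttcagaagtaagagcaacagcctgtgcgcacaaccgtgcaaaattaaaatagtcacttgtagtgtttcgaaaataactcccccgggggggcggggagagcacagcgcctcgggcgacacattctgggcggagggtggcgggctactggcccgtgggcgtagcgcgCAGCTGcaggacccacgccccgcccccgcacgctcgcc
Slc16a3 held 2 matches of ACGTG and Ldha 5, counted on both strands, whereas the windows of Aldoa and Eno3 held neither motif. Gys1 and Phka1 held 1 CAGCTG each. Phkb and Gbe1, which also rose in control offspring and are not printed, held neither motif. Of the 32 members with an entry, 12 (37.5%) held ACGTG and 8 (25.0%) held CAGCTG, against 16.6% and 12.8% of 27025 genes. The 4 genes that fell together did not all share either motif in this window, and neither did the 4 that rose in control offspring. Ldha has 2 and Aldoa 3 listed starts, and only the first was read.

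Glucose uptake and phosphorylation did not pass the test at any of its 4 genes in either group of offspring. Of all genes, 31.9% passed in control and 20.1% in undernourished offspring. Slc2a4 encodes GLUT4, the transporter that insulin and contraction bring to the fibre surface. It read 7.14, 7.16, 7.54 and 7.79 in control AL, 7.36, 7.65, 7.41 and 7.45 in control CR, while it read 7.67, 7.45, 7.67 and 7.54 in undernourished AL against 7.48, 7.30, 7.38 and 7.49 in undernourished CR. The 4 groups overlapped, and its changes were 0.06 ± 0.14 and -0.17 ± 0.14. Slc2a1 encodes GLUT1, the basal transporter that is abundant in the blood-brain barrier. Its AL arrays read 2.39, 2.09, 1.69 and 1.86 (control) and 1.66, 1.73, 1.92 and 1.99 (undernourished), and its CR arrays 1.91, 1.92, 1.497 and 1.64 and 1.47, 1.81, 1.85 and 1.96. Control AL replicate 1 was the highest of all.

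Hexokinase 2, the insulin-responsive muscle isoform, gave 5.82, 6.24, 6.37 and 7.30 in control AL against 6.74, 7.05, 7.34 and 6.93 in control CR. Its change of 0.58 ± 0.24 missed the threshold (limma adjusted p = 0.0745), but without control AL replicate 4, the highest array of its group, it was 0.87 and called (adjusted p = 0.00106). In undernourished offspring Hk2 read 6.82, 6.73, 6.99 and 6.79 on AL and 7.004, 6.67, 6.76 and 6.91 on CR arrays, a change of 0.00 ± 0.24. Hexokinase 1, the isoform of brain and red cells, read -1.73, -1.95, -2.60 and -2.93 in control AL against -2.94, -2.79, -2.55 and -2.51 in undernourished AL. On CR arrays it read -2.49, -2.54, -2.22 and -2.25 and -2.30, -2.47, -2.40 and -3.42, the last being undernourished CR replicate 4, the lowest of all 16. In control AL the order of Hk1 from high to low was that of the replicates with the most brain transcripts. In undernourished AL it was not: Hk1 was lowest on replicate 1, which had the highest brain median, and highest on replicate 4, which had the lowest.

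Phosphofructokinase sets the pace of glycolysis, and its 3 isoforms did not move alike. Pfkm, the muscle isoform, read 8.64, 8.93, 9.09 and 8.98 in control AL against 8.83, 9.02, 8.89 and 8.92 in control CR, a change of 0.01 ± 0.13. In undernourished offspring it read 9.16, 8.96, 9.02 and 9.12 and 8.97, 8.79, 8.99 and 8.53, a change of -0.24 ± 0.13 (adjusted p = 0.185). Its groups overlapped in both. Pfkl, the liver isoform, read 0.25, 0.02, -0.58 and -0.49 in control AL against -0.74, -0.46, -0.50 and -0.72 in undernourished AL. Its CR arrays read -0.17, -0.55, -0.38 and -0.39 and -0.50, -0.39, -0.73 and -0.69, and its changes were -0.17 ± 0.17 and 0.03 ± 0.17.

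Pfkp, the platelet isoform, which is also a main isoform of brain, fell in control offspring. Control AL arrays read 0.60, 0.58, -0.61 and -0.98, with replicates 1 and 2 far above the other pair, and control CR arrays -1.72, -1.60, -1.23 and -1.34, all lower. The change was -1.37 ± 0.30 (adjusted p = 0.00293). Undernourished AL arrays read -0.61, -0.84, -1.03 and -0.82 and undernourished CR arrays -1.52, -1.54, -1.52 and -1.12, again without overlap, with a change of -0.60 ± 0.30 that was not called (adjusted p = 0.168). A dimmer probe of Pfkp was called lower in both (-3.06 ± 0.44 and -2.17 ± 0.44) when every kept probe was fitted.

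Pfkp was set beside the brain markers, and whether brain RNA lies behind its fall was not tested. In undernourished AL, replicate 1 was highest for both, whereas replicate 4 was lowest for the brain markers but not for Pfkp. Replicates 1 and 2 of control AL, which were highest for Pfkp, were also highest for the 28 brain markers. With the median brain marker as a covariate its change in control offspring was -0.42 (adjusted p = 0.228), while leaving out 5 arrays chosen for skin or liver RNA, among them 3 of the 4 control AL arrays, gave -0.49 (adjusted p = 0.257). Of the wider pathway list, Aldoc and Eno2, isoforms of brain, were lower on CR arrays as well. Not all isoforms of brain were: Hk1 changed by -0.07 in control offspring, and Pgam1 had changes of opposite signs in the 2 kinds of offspring. Aldoc, aldolase C, read 3.99, 3.37, 1.498 and 0.18 in control AL against 1.20, 0.21, -0.07 and -1.07 in undernourished AL, against -2.19, -1.54, -2.85 and -3.30 and -2.14, -3.00, -1.73 and -3.08 on CR arrays. Eno2, neuron-specific enolase, read 2.28, 1.75, -0.15 and -1.18 and -0.08, -0.84, -1.04 and -1.75 on AL arrays and lay between -3.21 and -2.62 on CR arrays.

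**Figure D2:**
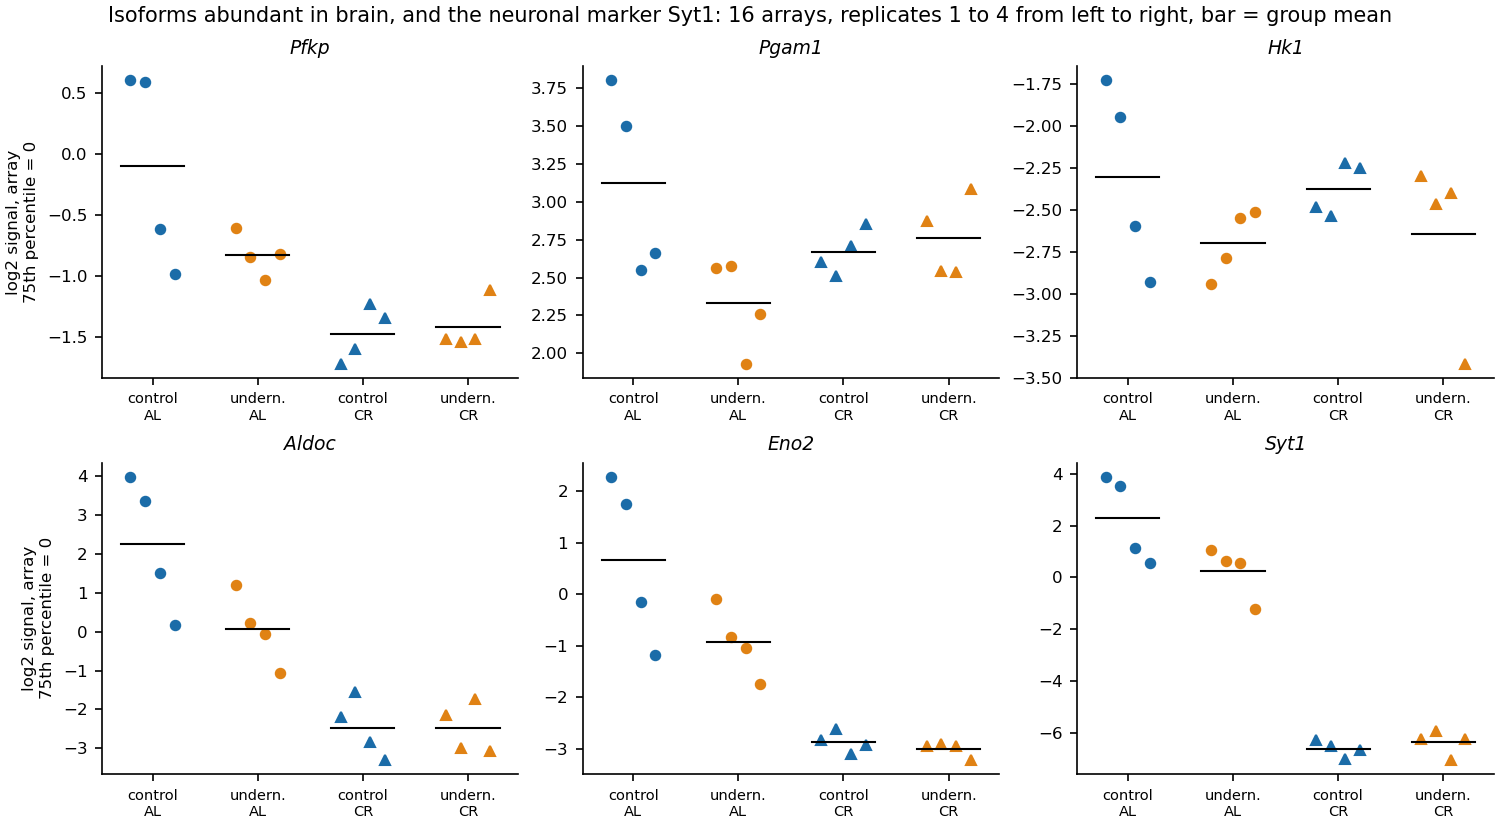
Log2 signal relative to the array's 75th percentile (y axis) on all 16 arrays for 5 glycolytic isoforms that brain uses and for the synaptic marker Syt1 (last panel), by group; bars are group means. Replicates 1 and 2 of control AL are the highest for Pfkp, Pgam1, Hk1, Aldoc, Eno2 and Syt1, while CR arrays of Hk1 and Pgam1 overlap AL arrays. Syt1 was well above background on 13 of the 16 arrays.

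Aldoa encodes aldolase A, the muscle aldolase, and fell in both groups of offspring on this scale. It read 9.97, 10.39, 10.09 and 10.36 in control AL against 9.44, 9.67, 9.74 and 9.74 in control CR, without overlap. The change was -0.56 ± 0.17 (limma adjusted p = 0.0208), and it was not called without control AL replicate 2 or without control CR replicate 1 (adjusted p = 0.0633 and 0.0645). In undernourished offspring Aldoa read 10.25, 10.24, 10.35 and 10.51 on AL and 9.16, 9.45, 9.99 and 9.81 on CR arrays, also without overlap, a change of -0.73 ± 0.17 (adjusted p = 0.00798). The other probe of Aldoa differed by -0.36 ± 0.14 (adjusted p = 0.0657) and -0.42 ± 0.14 (adjusted p = 0.0451). Gpi1 and Tpi1, glucose-6-phosphate and triosephosphate isomerase, changed by 0.17 ± 0.11 and 0.17 ± 0.12 in control and 0.11 ± 0.11 and 0.09 ± 0.12 in undernourished offspring, none called.

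Pfkfb1 and Pfkfb3 make and break fructose 2,6-bisphosphate, the strongest activator of phosphofructokinase. Neither was called with restriction. Pfkfb3 had the larger spread: it read 4.31, 3.59, 5.25 and 4.08 in control AL, 4.94, 4.495, 4.19 and 4.22 in control CR, while it read 5.25, 5.77, 5.97 and 4.85 in undernourished AL against 4.37, 5.43, 4.58 and 5.07 in undernourished CR. Its changes with restriction were 0.15 ± 0.34 and -0.60 ± 0.34, and a dimmer probe was called lower in undernourished offspring (-1.03 ± 0.35, adjusted p = 0.0457). Pfkfb1 changed by -0.20 ± 0.22 and -0.13 ± 0.22.

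In lower glycolysis none of the 7 genes was called in control offspring, where 31.9% of all genes were. In undernourished offspring 1 fell, Eno3, where 9.82% of all genes fell. Enolase 3 is the muscle enolase. It read 9.38, 9.37, 9.37 and 9.57 in undernourished AL against 8.96, 8.65, 9.21 and 9.06 in undernourished CR, without overlap. The change was -0.45 ± 0.13 (limma adjusted p = 0.0252), and the call was lost without undernourished AL replicate 4, undernourished CR replicate 1 or undernourished CR replicate 2 (adjusted p = 0.056 to 0.0779). In control offspring Eno3 read 9.04, 9.39, 9.21 and 9.47 and 8.91, 8.97, 9.10 and 8.96, a change of -0.29 ± 0.13 (adjusted p = 0.105). Eno1, the ubiquitous enolase, read -0.73, -0.36, -0.95 and -1.15 in control AL, -0.83, -1.36, -0.68 and -0.87 in control CR, while it read -0.86, -0.99, -1.05 and -0.83 in undernourished AL against -0.77, -0.84, -0.99 and -1.33 in undernourished CR, all overlapping.

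Phosphoglycerate mutase has a muscle form, Pgam2, and a form of brain and other tissues, Pgam1. Pgam2 read 8.06, 8.31, 8.17 and 8.71 and 8.41, 8.33, 8.55 and 8.49 in control AL and CR and 8.57, 8.25, 7.99 and 8.25 and 8.49, 8.29, 8.39 and 8.17 in undernourished AL and CR. Its changes were 0.13 ± 0.15 and 0.07 ± 0.15. Pgam1 read 3.80, 3.50, 2.55 and 2.66 in control AL, high on the 2 arrays richest in brain transcripts, and 2.61, 2.51, 2.71 and 2.86 in control CR. In undernourished offspring it read 2.57, 2.58, 1.93 and 2.26 on AL and 2.87, 2.54, 2.54 and 3.08 on CR arrays. The changes, -0.46 ± 0.25 and 0.42 ± 0.25, had opposite signs and neither was called. With the median brain marker as a covariate Pgam1 was higher on restriction in undernourished offspring (0.67, adjusted p = 0.0111).

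Gapdh, often used as a reference transcript, changed by 0.07 ± 0.12 and -0.03 ± 0.12, and its 16 arrays lay between 8.70 and 9.15. Pgk1, phosphoglycerate kinase, changed by 0.20 ± 0.12 and 0.09 ± 0.12, and its other probe by 0.22 ± 0.13 and 0.08 ± 0.13. Without control AL replicate 4 the change of Pgk1 in control offspring was 0.30 and called (adjusted p = 0.0458). Pkm, pyruvate kinase, changed by 0.22 ± 0.16 and -0.11 ± 0.16, not called.

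Of the 5 genes of lactate and the glycerol phosphate shuttle, 1 fell in control and 2 in undernourished offspring, where 15.1% and 9.82% of all genes fell. Slc16a3 encodes MCT4, the lactate exporter of glycolytic fibres, and fell in both groups of offspring. In control offspring it read 6.61, 6.62, 7.01 and 7.01 on AL and 6.25, 6.45, 5.99 and 6.23 on CR arrays, a change of -0.58 ± 0.20 (limma adjusted p = 0.0411). In undernourished offspring it read 7.11, 6.87, 6.60 and 6.52 and 6.32, 6.13, 6.25 and 5.39, a change of -0.75 ± 0.20 (adjusted p = 0.0186). Every AL array lay above every CR array in both. The call in control offspring stood near the threshold and was lost with 7 of the 16 omissions of 1 array: control AL replicate 3 or 4, control CR replicate 1, 3 or 4, undernourished AL replicate 2 or undernourished CR replicate 2 (adjusted p = 0.0505 to 0.111). In undernourished offspring, omitting undernourished AL replicate 1 ended the call (adjusted p = 0.0513).

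Slc16a1 encodes MCT1, the lactate importer of oxidative fibres, and read 3.79, 3.75, 3.94 and 4.51 in control AL against 4.08, 4.18, 4.16 and 4.19 in control CR. Its undernourished arrays read 4.17, 3.95, 3.79 and 4.15 (AL) and 4.17, 4.13, 4.10 and 4.67 (CR). The changes, 0.16 ± 0.17 and 0.25 ± 0.17, were not called. Ldha, the muscle subunit of lactate dehydrogenase, read 8.73, 8.67, 8.67 and 8.75 in undernourished AL against 8.02, 8.10, 8.68 and 8.36 in undernourished CR, where replicate 3 reached the AL range. The change was -0.42 ± 0.14 (adjusted p = 0.0467) and the call was close to the threshold: 13 of 16 omissions of 1 array lost it (adjusted p = 0.0549 to 0.137), all but those of control AL replicates 1 and 4 and undernourished CR replicate 3. The other probe of Ldha changed by 0.06 ± 0.14 there, and was called higher in control offspring (0.53 ± 0.14, adjusted p = 0.00948), where the probe used read 8.36, 8.64, 8.54 and 8.82 and 8.38, 8.35, 8.32 and 8.45 and changed by -0.22 ± 0.14.

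Ldhb, the heart subunit, which favours lactate use, read 6.87, 6.35, 6.37 and 6.78 in control AL against 6.12, 6.92, 6.94 and 6.62 in control CR. Its undernourished arrays read 6.36, 6.35, 6.55 and 6.83 and 6.66, 6.64, 6.17 and 7.62, and it was not called (0.06 ± 0.27 and 0.25 ± 0.27). Gpd1, the cytosolic glycerol phosphate dehydrogenase that passes NADH electrons to the mitochondrion, changed by 0.36 ± 0.23 and 0.41 ± 0.23. Undernourished CR replicate 4 was low for Gpd1, at 6.68 against 7.57 to 7.67 on the other 3 arrays, and without it the change in undernourished offspring was 0.65 and called (adjusted p = 0.0276). A second, dim probe of Gpd1 was called higher in control offspring (1.0 ± 0.30, adjusted p = 0.0175).

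Phosphorylase kinase, the enzyme that activates glycogen phosphorylase, supplied 2 of the 4 genes that rose in control offspring. Phka1, its muscle alpha subunit, read 0.89, 1.53, 1.68 and 1.51 in control AL against 2.56, 2.15, 2.35 and 2.28 in control CR. The lowest CR array lay above the highest AL array, and the change was 0.94 ± 0.24 (limma adjusted p = 0.00751), 1.91-fold. In undernourished offspring it read 1.67, 2.06, 2.47 and 2.18 on AL and 2.61, 2.48, 2.49 and 1.59 on CR arrays, a change of 0.20 ± 0.24 (adjusted p = 0.595). Control AL was the group that stood low.

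Phkb, the beta subunit, read 2.95, 3.196, 3.46 and 3.54 in control AL against 4.08, 3.60, 3.84 and 3.88 in control CR, without overlap. Its change was 0.57 ± 0.15 (limma adjusted p = 0.00866), and its other probe was called too (0.73 ± 0.15, adjusted p = 0.00189). In undernourished offspring Phkb read 3.66, 3.88, 3.61 and 3.53 and 3.74, 3.88, 3.96 and 3.66, a change of 0.14 ± 0.15. Phkg1, the catalytic gamma subunit of muscle, changed by 0.27 ± 0.22 and -0.28 ± 0.22, neither called. Pygm, muscle glycogen phosphorylase, changed by 0.35 ± 0.15 (adjusted p = 0.0916) and -0.04 ± 0.15. Without undernourished CR replicate 4, where Pygm was lowest at 6.45, the change of Pygm in control offspring was called (0.35, adjusted p = 0.0271).

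On the side of synthesis, glycogen synthase and branching enzyme rose in control offspring, 2 of 6 genes, and none was called in undernourished offspring. Of all genes, 16.8% were called higher in control offspring and 20.1% either way in undernourished offspring. Gys1, muscle glycogen synthase, read 2.79, 3.22, 3.24 and 3.38 in control AL against 3.78, 4.01, 4.24 and 3.98 in control CR, without overlap. The change was 0.84 ± 0.21 (limma adjusted p = 0.00777), 1.79-fold. In undernourished offspring Gys1 read 3.15, 3.65, 3.80 and 3.99 and 4.27, 3.999, 3.93 and 3.33, a change of 0.24 ± 0.21 with overlapping arrays.

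Gbe1, the branching enzyme, read 4.93, 4.81, 5.47 and 5.86 in control AL against 5.60, 6.29, 5.998 and 5.86 in control CR, with control AL replicate 4 inside the CR range. Its change of 0.67 ± 0.23 was called (limma adjusted p = 0.037) but lost without control AL replicate 1 or 2 or control CR replicate 2, 3 or 4 (adjusted p = 0.0582 to 0.12). In undernourished offspring Gbe1 read 5.59, 5.44, 5.67 and 5.64 and 6.09, 5.72, 5.68 and 6.40, a change of 0.39 ± 0.23. Gyg, glycogenin, which primes a new granule, changed by 0.29 ± 0.17 and 0.06 ± 0.17. Ugp2, which makes UDP-glucose, changed by 0.23 ± 0.21 and -0.05 ± 0.21.

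Probes disagreed for the phosphatase subunits that bring protein phosphatase 1 to glycogen. For Ppp1r3a, the muscle subunit, the probe used changed by 0.07 ± 0.18 and -0.33 ± 0.18, not called, and a dimmer probe was called lower in both (-1.54 ± 0.33 and -1.49 ± 0.33, adjusted p = 0.00265 and 0.00636). For Ppp1r3c, the probe used changed by 0.58 ± 0.36 and 0.63 ± 0.36, not called, and a dimmer probe was called higher in both (1.87 ± 0.40 and 1.21 ± 0.40, adjusted p = 0.0024 and 0.0415). Without control AL replicate 4 the probe used for Ppp1r3c was also called in control offspring (0.92, adjusted p = 0.0372).

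**Figure D3:**
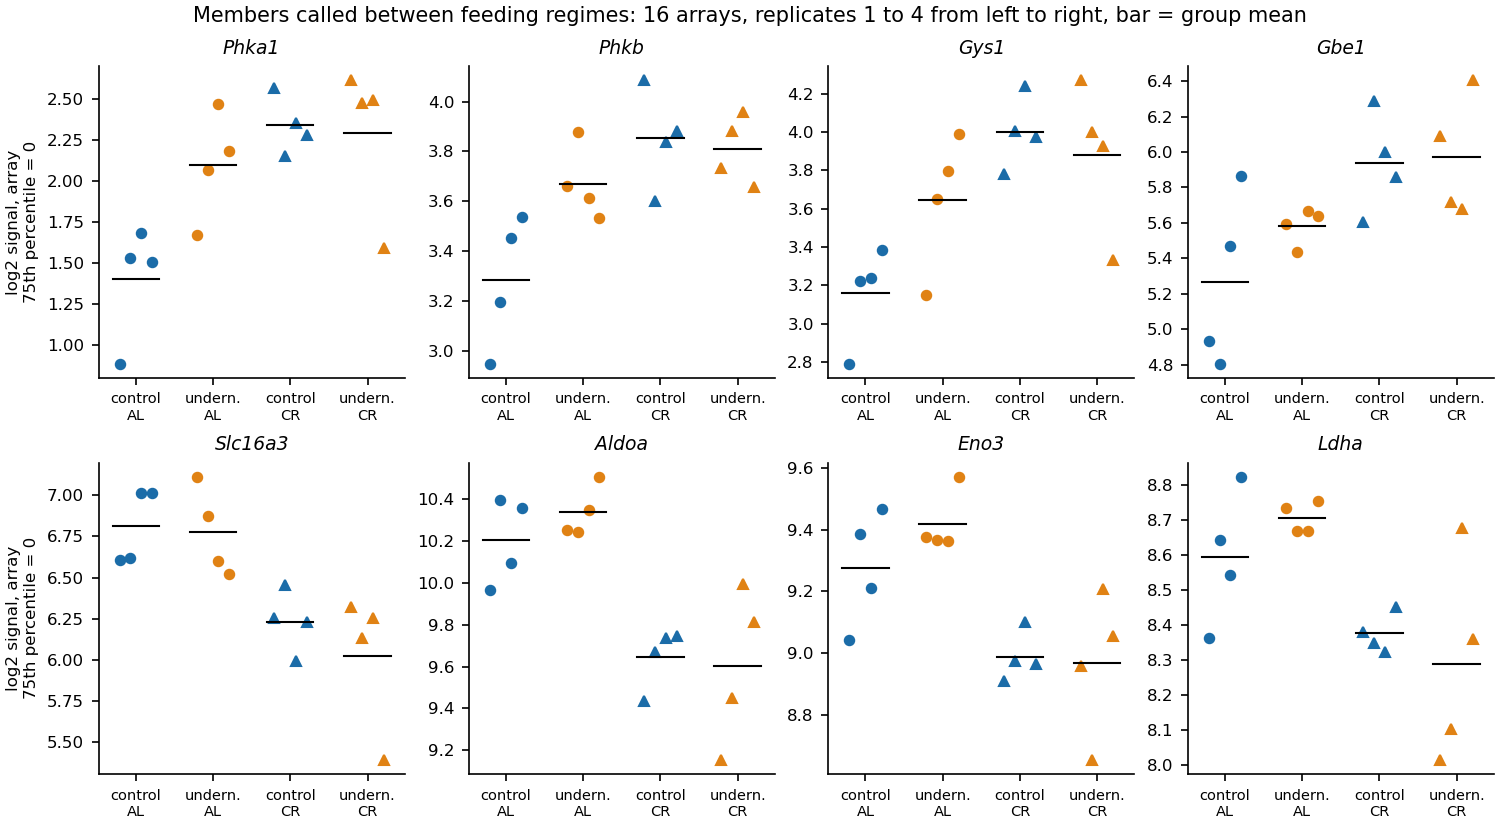
Log2 signal relative to the array's 75th percentile (y axis, its range set per gene) on all 16 arrays for Phka1, Phkb, Gys1 and Gbe1, called higher in control offspring, and Slc16a3, Aldoa, Eno3 and Ldha, called lower in undernourished offspring; bars are group means. Control AL stands low in the upper row, and both CR groups stand low in the lower row.

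The 4 increases in control offspring were not called when the control AL arrays that carried the most transcripts of other tissues were left out together. Omission of any 1 array, control AL replicate 1 or 2 included, did not end the calls of Phka1, Phkb and Gys1 (0 of 16 each). For Gbe1, 5 of the 16 omissions ended it. The call of Pfkp, lower in control offspring, held with each omission too. Without both control AL arrays of slide 1, which had the most brain transcripts, none of the 34 genes was called higher in control offspring and 2 were called lower, while 4379 of all genes were called (17.6%). There, Phka1 differed by 0.74, Gys1 by 0.69, Phkb by 0.36 and Gbe1 by 0.27 (adjusted p = 0.0781, 0.0834, 0.128 and 0.448). When 5 arrays picked from earlier results for skin or liver RNA were left out (control AL replicates 1, 2 and 3, undernourished AL replicate 3 and undernourished CR replicate 2), which leaves 1 control AL array, assumed to vary like the others, no member was called in control offspring (889 genes, 3.58%), and in undernourished offspring 1 was called (14.3% of all genes). With the median brain marker as a covariate 1 member was called in control offspring, lower (as were 7.17% of all genes), and it was not among the 7: Pfkfb1 (-0.78, adjusted p = 0.0463). Control CR replicate 1 stayed in, although its 10 liver markers had a median of -3.86, below -3.39 on undernourished AL replicate 3 and above -4.99 on the next highest array. The part of foreign tissue in these increases was not tested beyond these fits, in which few AL arrays are left or the covariate is close to 0 on all CR arrays.

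The calls of Aldoa, Eno3 and Ldha were not made on every scale. Their spots are bright, and Aldoa has the highest mean signal of all genes tested: 18 of the 34 genes lie in the top 2% of tested genes by mean signal, 497 genes. Before scaling, Aldoa gave processed signals of 532940 to 575541 on AL and 390000 to 567000 on CR arrays, up to 88.6% of the highest saturation value. Values of CR arrays are deposited with 3 significant digits and those of AL arrays with more. Eno3 gave 278315 to 306921 on AL and 295000 to 350000 on CR arrays, and Ldha 162453 to 196588 and 177000 to 227000. The mean unscaled signal on CR over AL arrays was thus 0.917 for Aldoa, 1.103 for Eno3 and 1.15 for Ldha, while the mean 75th percentile, by which each array was divided, was 1.42 times higher on CR arrays. Unscaled, 31 of the 34 genes had a ratio above 1. Among the 12 markers of fast muscle, which are bright as well, 3 fell in control and 5 in undernourished offspring on the main scale, where 15.1% and 9.82% of all genes did. Of the 497 brightest genes 67 were called higher and 31 lower in control offspring, and 16 higher and 48 lower in undernourished offspring.

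**Figure D4:**
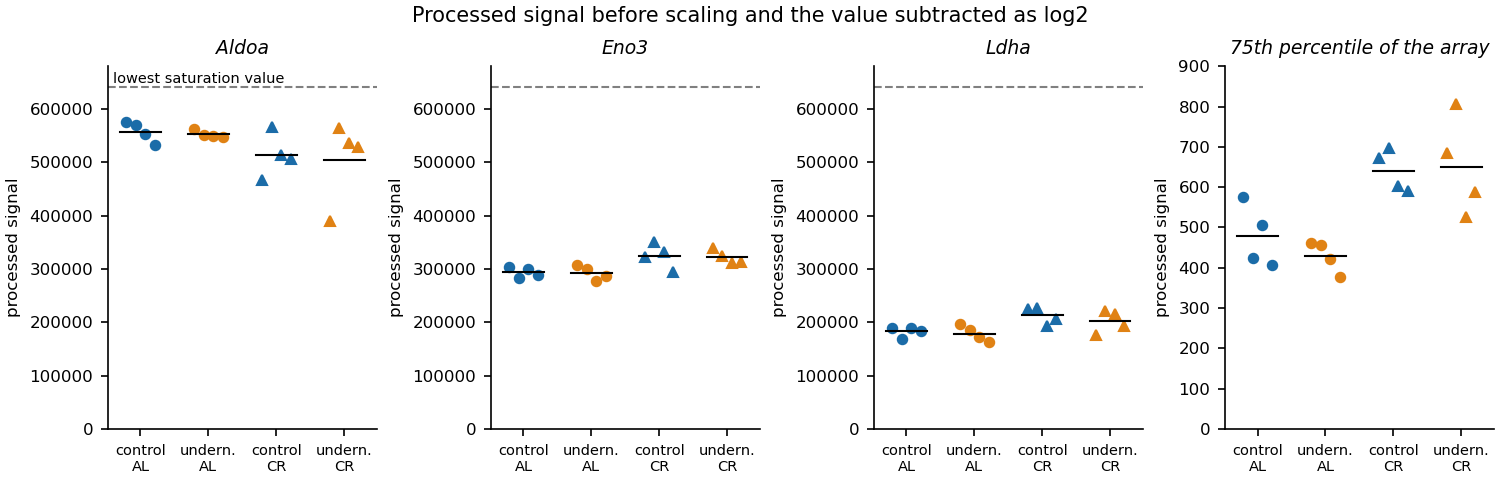
Processed signal before scaling (y axis) of Aldoa, Eno3 and Ldha on the 16 arrays by group, with the lowest saturation value of any array as a dashed line, and each array's 75th percentile of processed signal (right). Bars are group means; CR over AL means are 0.917 for Aldoa, 1.103 for Eno3 and 1.15 for Ldha, against 1.42 for the percentile.

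With quantile normalization, which forces each array to 1 distribution and so gives the brightest spots like values on every array, a change of Aldoa near 0 was largely set by the method. It was -0.00 in control and -0.13 in undernourished offspring (adjusted p = 0.99998 and 0.505), and it says nothing on the call of this gene. Neither Eno3 (-0.10) nor Ldha (-0.21) was called in undernourished offspring. Slc16a3 was called in both, at -0.74 and -0.78. In the authors' deposited log2 values, made by a normalization that no source used here states, the picture moved upward: 21 of 34 members were called higher and 1, Pfkp, lower in control offspring, and 23 higher and none lower in undernourished offspring. In these values 45.9% of all genes were called higher in control offspring, of 56.4% called either way, and in undernourished offspring 41.6% higher and 6.15% lower. The median change of all genes in these values was 0.29 in control and 0.24 in undernourished offspring, 0.23 and 0.24 above the main scale, and the members' medians were 0.57 and 0.54, beside 0.62 in both for the 497 brightest genes. Relative to the median of all genes the members' medians stood 0.28 and 0.30 higher.

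Relative to that median, Gapdh stood at 0.28 and 0.31 in the authors' values, Gys1 at 1.04 and 0.60, Phka1 at 1.07 and 0.48, Aldoa at -0.40 and -0.44 and Slc16a3 at -0.40 and -0.38. On the authors' own scale Slc16a3 and Aldoa were not called (-0.11 and -0.14 for Slc16a3, -0.11 and -0.20 for Aldoa). In undernourished offspring Eno3 was at 0.12 and Ldha at 0.09 there, which is -0.12 and -0.15 relative to the median of all genes. Among all called genes the share called higher was 52.7% in control and 51.1% in undernourished offspring on the main scale, 63.0% and 62.5% with quantile normalization, 34.2% and 22.9% with normexp background correction and 81.4% and 87.1% in the authors' values. With normexp the median of all genes shifted by -0.23 and -0.24, and 7 members were called higher and 3 lower in control offspring (16.9% and 32.5% of all genes) and 4 lower in undernourished offspring (40.8%).

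**Figure D5:**
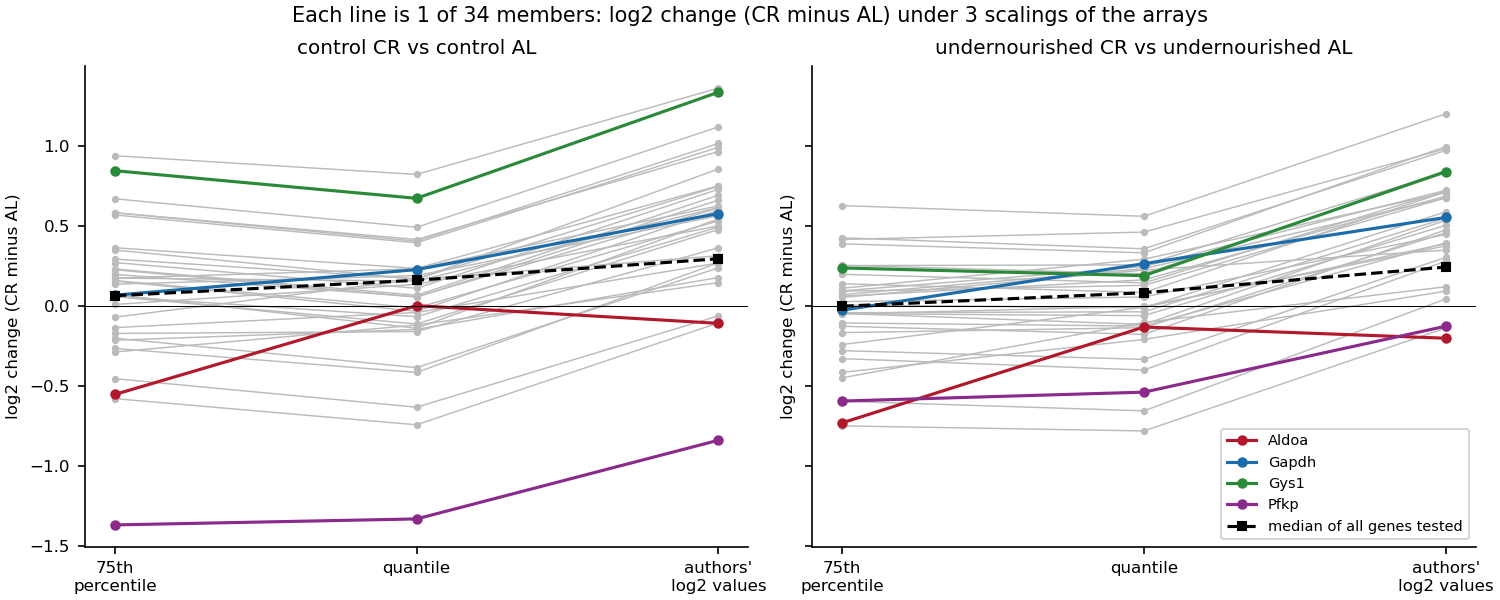
Log2 change with calorie restriction (y axis) of the 34 genes under the 75th-percentile scale, quantile normalization and the authors' deposited log2 values (x axis), in offspring of control dams (left) and undernourished dams (right). Grey lines are genes, 4 are coloured and the dashed line is the median of all genes tested; every line ends higher in the authors' values than it starts.

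Of 52 other genes of the pathway, 49 were measured. In control offspring 11 rose and 3 fell, where 16.8% and 15.1% of all genes did, and in undernourished offspring 5 rose and 4 fell, where 10.3% and 9.82% did. Stbd1, which tethers glycogen to membranes, had the largest increase: it read 1.70, 2.20, 1.67 and 2.72 in control AL against 4.01, 3.62, 3.69 and 3.36 in control CR, a change of 1.60 ± 0.26 (limma adjusted p = 0.000483). In undernourished offspring it read 2.72, 2.58, 2.46 and 2.70 and 4.17, 3.93, 3.77 and 2.95, a change of 1.09 ± 0.26 (adjusted p = 0.0102). Every CR array lay above every AL array in both.

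Gpd2, the mitochondrial enzyme of the glycerol phosphate shuttle, rose by 0.82 ± 0.13 and 0.50 ± 0.13, and Ppp1ca, a catalytic subunit of protein phosphatase 1, by 0.72 ± 0.10 and 0.46 ± 0.10. Of the genes that fell, Hkdc1 (-4.76 ± 0.86 and -3.01 ± 0.86), Aldoc (-4.73 ± 0.72 and -2.55 ± 0.72) and Eno2 (-3.54 ± 0.57 and -2.08 ± 0.57) fell in both and were highest on control AL replicates 1 and 2. Hkdc1 was well above background on all 4 control AL and 3 of 4 undernourished AL arrays, but on 1 of 4 control CR and 2 of 4 undernourished CR arrays, so its fall is measured against values mostly at background.

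Maternal undernutrition was compared within each feeding regime. No member was called in either, where 0.0322% of all genes (8) were called on AL arrays and 0.0% on CR arrays. Of 24826 genes, 4716 had an unadjusted p under 0.05 on AL arrays and 709 on CR arrays (limma). On AL arrays the smallest p among members was that of Pfkfb3, given above by array, of which the highest control AL array (5.25) lay above the lowest undernourished AL array (4.85). Its change, undernourished minus control, was 1.15 ± 0.34 (adjusted p = 0.154), 2.22-fold, and its other probes by 0.93 ± 0.35 and 1.12 ± 0.40. It was 1.56 on slide 1 and 0.74 on slide 2, and with the slide as a block its adjusted p was 0.061. Without both control AL arrays of slide 1 it was 0.79 (adjusted p = 0.985).

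Next were Pgam1, at -0.79 ± 0.25 (adjusted p = 0.155), and Phka1, at 0.70 ± 0.24 (adjusted p = 0.161). Pgam1 differed by -1.08 on slide 1 and -0.51 on slide 2, and Phka1 by 0.66 and 0.73. With the slide as a block 1970 genes (7.94%) were called, among them Pgam1 (adjusted p = 0.0139) and Pfkp (-0.72 ± 0.30 without the block, adjusted p = 0.0497 with it), both lower, as were 6.28% of all genes. With the replicate number as a block, fitted within each feeding regime, 1433 genes (5.77%) were called, among them Pgam1 lower and Phka1 higher (adjusted p = 0.0254 and 0.0452). The counts also turned on control AL replicate 4: without it 2287 genes (9.21%) were called, with Hk2 higher (0.69) and Pfkp (-1.02) and Pgam1 (-0.95) lower. The median brain marker was 0.43 and 0.01 in control AL against -1.47 and -2.22 in undernourished AL on slide 1. On slide 2 it was -2.07 and -2.16 against -2.07 and -2.77, while Phka1 differed by like amounts on both slides. With that median as a covariate Pgam1 was at -0.29, Pfkp at -0.08 and Phka1 at 0.44, none called. Whether brain RNA lies behind these differences was not tested.

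On CR arrays the members with the smallest p were Pygm (-0.19 ± 0.15), Pfkl (-0.20 ± 0.17) and Pfkfb3 (0.40 ± 0.34), with adjusted p = 0.99994, 0.99994 and 0.99994. Pygm read 7.25, 7.10, 7.09 and 7.04 in control CR against 7.13, 7.06, 7.05 and 6.45 in undernourished CR, overlapping. Over the 34 members the change ran from -0.29 (Ppp1r3c) to 0.40 (Pfkfb3).

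Whether restriction changed a transcript differently in the 2 kinds of offspring was tested by the interaction, undernourished minus control. None of the 34 was called, and 1 of all genes was (0.00403%). The smallest p belonged to Pgam1 (0.88 ± 0.36), Phka1 (-0.74 ± 0.33) and Phkb (-0.43 ± 0.21), with adjusted p = 0.505, 0.514 and 0.529. Gys1, called in control offspring alone, had an interaction of -0.61 ± 0.30 (adjusted p = 0.533). Its increase was therefore not shown to differ between offspring of the 2 kinds of dam, and the same holds for the other members called in 1 group.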

How the data were processed

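Total RNA of each pool was isolated with Trizol and freed of DNA with DNase before 200 ng was labelled with Cy3, per the labels' protocols. The deposited spot intensities are processed signals that Agilent Feature Extraction 10.5.1.1 made (per the file headers; the submitters' processing notes name it too), with background subtraction and spatial detrending per array and no between-array step. Other values in the deposited files are spot types and flags for outlier, saturated and well-above-background spots. A log2 table that the authors deposited has each probe centred on its median over the 16 arrays. Set against the scanner files, differences between arrays had the same direction (median correlation 0.956 within and 0.958 between scan days) and a median slope of 0.781 and 0.831. Whether the scale of the authors' table is narrower than log2 cannot be told from these slopes, since its between-array normalization stays unknown. Medians of its columns for replicates 1 to 4 of control AL were -0.0881, -0.1006, -0.0265 and -0.0041, of undernourished AL -0.0438, -0.0239, -0.0086 and -0.0087, of control CR 0.0267, 0.0301, 0.0305 and 0.0374, and of undernourished CR 0.0265, 0.0330, 0.0342 and 0.0171.

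Control and outlier spots were left out, spots of a probe were averaged, and log2 of the processed signal minus that of the array's 75th percentile was used. A probe was kept if well above background on 4 or more arrays (32079 probes), and per gene the probe with the highest mean was used. Probes were named by matching 24844 of 41174 probes to RefSeq accessions (GRCm38.p6); 15020 of the 24826 tested genes had a symbol. The 34 genes had 50 kept probes, and 12 genes more than 1. Tests used lmFit and eBayes of limma 3.58.1 (R 4.3.3), with 1 mean per group over all 16 arrays, two-sided, Benjamini-Hochberg over all genes. The fit was tested on simulated data. The number of arrays limits the precision.

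The members and lists were chosen with earlier results of these data known. Values on every array are given for called members and isoform groups, and where no member was called for the 3 smallest p. Of the other pathway genes up to 4 called ones of largest change in each comparison were to be named. Gpd2 and Ppp1ca, and Stbd1 in undernourished offspring, were named after their values were seen, and some others are not reported here. Same-numbered arrays of control AL and undernourished AL shared a slide and deviated together from their group means over all genes (correlations 0.39, 0.12, 0.11 and 0.44). The replicate number was taken to pair them, but arrays of different number on the same slide were not compared. A pairing by number was therefore not told apart from the shared slide. The replicate block within each feeding regime was fitted on CR arrays too. For control CR and undernourished CR, whose same-numbered arrays also shared a slide, the correlations were 0.23, 0.11, 0.02 and 0.06. A pairing of CR arrays was therefore neither shown nor excluded. Between feeding regimes the correlations were -0.14 to 0.08 and gave no sign of a pairing. Normexp used the median spot signal and the median local background, offset 50, since the files hold no mean signal. The alternatives tried are another background correction, normalization, filter, probe rule, block, covariate and set of arrays, and the authors' log2 values.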

Additional observations from a re-analysis of the deposited data

Results flagged for a closer look

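Within the 4 arrays of a group, a single array stood far from the other 3 in 13 of the 136 combinations of a member and a group by Dixon's test of a gap over the range, and chance alone flags about 1 in 20 combinations. Of the 13, 9 fell on undernourished CR replicate 4, so they are not independent of each other.

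On that array 6 genes were low by this test. Phka1 was at 1.59 against 2.48 to 2.61 on the other 3 arrays, Phkg1 at 2.37 against 3.31 to 3.35, Pygm at 6.45 against 7.05 to 7.13 and Gpd1 at 6.68 against 7.57 to 7.67. Pkm was low there too, at 6.01 against 6.60 to 6.65, and so was Hk1, at -3.42 against -2.47 to -2.30. Against these, 3 were high: Slc16a1, the lactate importer of oxidative fibres, was at 4.67 against 4.10 to 4.17, Ugp2 at 6.91 against 6.25 to 6.35 and Pfkp at -1.12 against -1.54 to -1.52. Ldhb was also highest there, at 7.62 against 6.17 to 6.66, without passing the same limit, and so were Gyg at 8.27, Gbe1 at 6.40 and Ppp1r3c at 5.83.

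The other 4 flags lay on AL arrays. On undernourished AL replicate 1 Pgk1 was at 7.55 against 7.49 on the other 3 arrays, and Pygm, at 6.82, was lower than on the other 3. On undernourished AL replicate 4 Eno3 was at 9.57 against 9.37 to 9.38. On control AL replicate 1, the array richest in brain transcripts, Pkm was at 6.05 against 6.48 to 6.54.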

How the results depend on the processing

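Of the 34 genes, 7 were called with restriction in control and 4 in undernourished offspring, and 0 for maternal undernutrition on AL arrays. Of all 24826 genes, 6132 to 9001, 3608 to 5794 and 2 to 2287 were called when 1 array at a time was left out. Members called then numbered 5 to 9, 2 to 4 and 0 to 3, and 0 for maternal undernutrition on CR arrays and for the interaction. In control offspring the count was 1 with either brain index as a covariate, 22 with the authors' log2 values, 2 without both control AL arrays of slide 1 and 0 once the 5 arrays chosen for skin or liver RNA were left out. In undernourished offspring it was 7 with the mean brain index (where 6350 of 24826 genes were called), 2 with quantile normalization or with only the groups compared in the fit, 23 with the authors' log2 values and 1 without those 5 arrays. For maternal undernutrition on AL arrays it was 2 with the slide as a block, 2 with the replicate block within each feeding regime and 3 without control AL replicate 4. The cause was not tested. With 1 replicate block over all groups, which the check of pairing does not bear out, the counts were 6 and 4, and 6 of all genes were called for maternal undernutrition on AL arrays.

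In undernourished offspring 9 changes turned positive in the authors' log2 values: Gapdh 0.55, Pygm 0.55, Slc2a1 0.53, Ugp2 0.50, Pfkfb1 0.47, Slc2a4 0.46, Pfkm 0.39, Eno3 0.12 and Ldha 0.0903. With the mean of all probes of a gene, Ppp1r3a in control offspring was at -0.74, since its dimmer probe was lower. Directions of changes called in neither fit were not compared. The median-marker index and the replicate block within each feeding regime were chosen after seeing the data. The fit of only the groups compared was not run for the interaction, and the slide entered as a random block for feeding. All genes called, with restriction in control offspring, numbered 7931 in the fit reported, 12284 without the filter on dim probes, 12278 with normexp, 13991 in the authors' values, 4293 and 2856 with the mean and median brain index, 4379 without both control AL arrays of slide 1 and 889 without the 5 arrays. In undernourished offspring they numbered 4992, and 10037, 13148 and 11850 under the first 3 of these. There they numbered 5428 with quantile normalization and 4485 with only the groups compared. For maternal undernutrition on AL arrays 8 of all genes were called, 16 with quantile normalization, 4 with either brain index, 3 without both control AL arrays of slide 1, 1 without the 5 arrays, 1970 with the slide and 1433 with the replicate block within each feeding regime, 0 with normexp, the authors' values or only the groups compared, and 2 to 2287 without 1 array. For the interaction it was 1, 12 with the slide as a block and 0 to 94 without 1 array.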

Other observations

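The members differed in how far arrays of 1 group spread. The pooled standard deviation within groups was smallest for Gpi1 (0.13), Gapdh (0.14) and Pgk1 (0.14), and largest for Ppp1r3c (0.54), Pfkfb3 (0.52) and Pfkp (0.44), on the log2 scale over 4 groups of 4 arrays. In most isoform groups the muscle isoform spread less than its partners: 0.15 for Pfkm against 0.24 for Pfkl and 0.44 for Pfkp, 0.16 for Eno3 against 0.26 for Eno1 and 0.20 for Pgam2 against 0.38 for Pgam1. Ldha (0.18 against 0.40 for Ldhb), Slc2a4 (0.18 against 0.23 for Slc2a1) and Hk2 (0.35 against 0.40 for Hk1) went the same way. Slc16a3 went the other way, at 0.29 against 0.24 for Slc16a1. This is a description of these arrays, on probes of different brightness, with no test.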
